A study of Mus musculus with 32 samples.

Results

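Bone marrow takes over blood formation from the fetal liver around birth, and the comparison described here covers the first step after that move, from perinatal marrow to marrow 1 week after birth. It used 6 of the 32 libraries of an ATAC-seq study, an assay in which the Tn5 transposase cuts accessible DNA and tags it for sequencing. The libraries fall into 2 groups, 1w BM (3 libraries, labelled as 1 week) and Perinatal BM (3 libraries, labelled as perinatal, with no day given). All 6 came from LSK cells, sorted as lineage-negative cells with Sca-1 and Kit on the surface, in which blood stem cells and their first progeny are found, of C57BL/6 mice with no transgene or treatment named in the labels. The other developmental libraries, 20 in number, came from E16.5 FL, E12.5 FL, E12.5 PL and from 3w, 4w, 6w and 8w BM (FL and BM stand for fetal liver and bone marrow, and the labels do not spell out PL). They served to estimate the spread and, later in the text, as stages outside the comparison. Members were chosen as the autosomal regions of the developmental count table, 96960 of 99037.

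In blood stem and progenitor cells, accessible chromatin marks promoters and enhancers that transcription factors can reach, and its level near a gene often, though not always, follows the use of that gene. Perinatal LSK cells divide more than adult ones and are known to move from a fetal to an adult state over the first weeks of life. Immediate early genes, such as those of the AP-1, EGR and NR4A families, encode transcription factors that answer signals and stress within minutes, and in mouse blood stem cells Nr4a1, Egr1 and Btg2 are also known for roles in quiescence or for opposing proliferation.

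Most regions did not pass the test between the 2 ages. A short list was higher at 1 week, with regions of Mgat4b, Nr4a1, Neat1 and Rgs1 among it, and a longer list was lower, with regions of Peg3, Sp110 and Btd among it. With edgeR's quasi-likelihood test, 178 of 96929 tested regions passed an adjusted p of 0.05 (0.184%), and 8742 had an unadjusted p under 0.05. Higher in 1w BM were 32 regions (0.033%) and lower were 146 (0.151%). The median log2 fold change over all tested regions was -0.02. Summed over the regions of each gene, 42 of 16394 genes passed (0.256%), of which 3 were higher (0.0183%) and 39 lower (0.238%).

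The number of calls depended on single libraries and on a set of regions that move together, described further on. Without 1w BM 1 the same test called 24 regions (9 higher and 15 lower), and without perinatal BM 1 it called 43 (5 higher and 38 lower). A fit without the co-varying regions called 53 (21 higher and 32 lower), and DESeq2 called 87 (27 higher and 60 lower). For gene sums the counts were 8 without 1w BM 1, 15 without 1w BM 3, 7 without perinatal BM 1 and 6 without the co-varying regions.

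**Figure D1:**
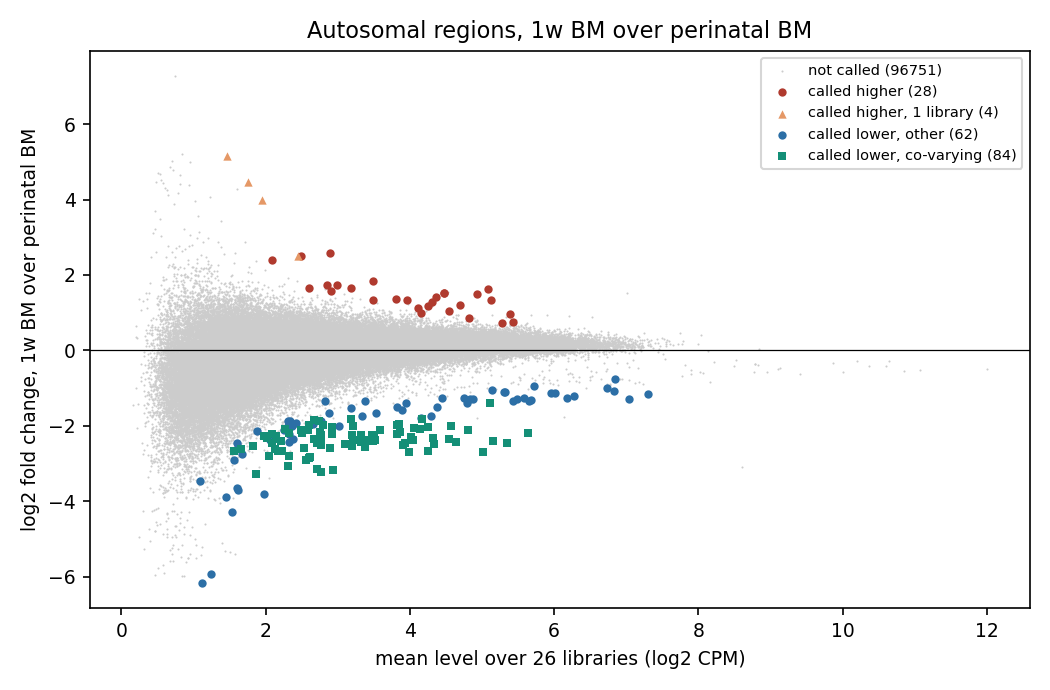
Each point is an autosomal region, with its mean level over 26 libraries (log2 CPM) on the x axis and its log2 fold change, 1w BM over perinatal BM, on the y axis. The 28 called regions drawn as red circles lie above 0 and the 62 drawn as blue circles below it, while 4 orange triangles rest on a single 1w BM library and 84 green squares are regions that move together across the other stages.

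Without any test, the groups did not overlap at 13365 regions (13.8%). Exchangeable libraries, 3 against 3, would separate wholly with a probability of 0.1 over both directions, so this is not a count of regions shown to differ. The 3 libraries of 1w BM lay wholly above the 3 of perinatal BM at 5766 regions (5.95%) and wholly below them at 7599 (7.84%), on CPM (counts scaled to the size of the library, with TMM factors). Higher regions made up 43.1% of these, against 30.6% under scaling by total counts, and thinning the 6 libraries to the smallest of them left 7049 of the 59513 regions then tested without overlap (3479 higher and 3570 lower). Of the higher set 31.5% lay at a gene end (within 1 kb of either end of a gene), against 18.1% of all tested regions, and its median log2 fold change was 0.52. Of the lower set 7.13% lay at a gene end, and its median was -1.07. The lower set was also the weaker in level, with a median of 1.75 log2 CPM, against 3.54 in the higher set and 2.36 over all. By gene sums, the libraries did not overlap at 880 genes higher (5.37%) and 1134 genes lower (6.92%).

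Depth differed between the libraries and has to be read beside these counts. The autosomal counts were 5578408, 2789981 and 9981107 in 1w BM 1 to 3, against 3318940, 5358102 and 3762197 in perinatal BM 1 to 3. The share of counts at gene ends was 44.3 ± 1.79% in 1w BM and 42.0 ± 0.469% in perinatal BM (SD, n = 3 each), a difference with an exact two-sided permutation p of 0.2, where 0.1 is the smallest that 3 libraries against 3 allow. The part of this share and of depth in the sets that do not overlap was not tested.

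Shown first is the sequence just before the start of the 3 genes called higher by sum and of Peg3, a lower gene added by choice. Of these 4 windows, 3 hold the letters bound by CREB and ATF factors, which drive many immediate early genes. Over all promoter windows the share was 17.8%. The other windows read, those of another Gosr2 start and of Edn2 and Guk1, held none, so the count depends on which windows are printed. Capitals mark TGACG, the core of the cAMP response element (CRE), on either strand, a motif chosen after these sequences were seen. Each line holds 250 bases before the start from RefSeq, build GRCm38.p6, written 5′ to 3′ in the direction of the gene. The windows are chr15:101266596-101266845 on the + strand for Nr4a1, chr11:103697724-103697973 on the - strand for Gosr2, chr8:88118509-88118758 on the + strand for Cnep1r1 and chr7:6730420-6730669 on the - strand for Peg3.
Nr4a1: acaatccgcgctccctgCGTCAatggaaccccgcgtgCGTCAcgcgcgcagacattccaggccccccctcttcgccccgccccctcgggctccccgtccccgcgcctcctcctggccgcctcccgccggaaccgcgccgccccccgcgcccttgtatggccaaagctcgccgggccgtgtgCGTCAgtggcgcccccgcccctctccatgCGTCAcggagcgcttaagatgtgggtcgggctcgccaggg
Gosr2: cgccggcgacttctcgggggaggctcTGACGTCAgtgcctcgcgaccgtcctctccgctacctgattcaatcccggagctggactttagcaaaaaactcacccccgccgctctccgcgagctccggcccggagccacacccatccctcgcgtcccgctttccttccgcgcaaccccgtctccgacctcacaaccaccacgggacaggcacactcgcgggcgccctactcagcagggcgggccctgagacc
Cnep1r1: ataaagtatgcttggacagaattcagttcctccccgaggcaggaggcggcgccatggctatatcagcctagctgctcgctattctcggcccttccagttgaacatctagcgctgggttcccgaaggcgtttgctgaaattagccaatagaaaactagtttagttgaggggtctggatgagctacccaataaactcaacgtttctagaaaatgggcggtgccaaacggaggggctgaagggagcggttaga
Peg3: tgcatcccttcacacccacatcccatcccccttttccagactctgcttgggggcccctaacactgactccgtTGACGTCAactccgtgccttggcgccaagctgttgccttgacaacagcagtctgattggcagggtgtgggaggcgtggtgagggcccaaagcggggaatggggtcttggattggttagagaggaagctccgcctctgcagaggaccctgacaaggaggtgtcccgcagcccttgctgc

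The core occurred 4 times in the Nr4a1 window. The Gosr2 and Peg3 windows each held the full 8-letter CRE, TGACGTCA, which counts as 2 overlapping cores. The Cnep1r1 window held none, nor did the window of another RefSeq start of Gosr2, chr11:103697055-103697304, or those of Edn2 and Guk1. Among 32851 promoter windows of this length, 17.8% held a core and 1.55% a full CRE on either strand. The printed windows had 74.4% (Nr4a1), 68.0% (Gosr2), 51.2% (Cnep1r1) and 60.4% (Peg3) G and C, against a median of 52.4% over all windows. The shares over all windows were not matched for this content. Peg3 lay lower in 1w BM and the other 3 genes higher. Peg3 was the only lower gene whose window was read and was added by choice. These windows therefore cannot show how the letters fall over the 2 directions. The AP-1 motif TGANTCA, present in 6.75% of the windows, occurred once in that of Gosr2. A match is a description of the letters and not of a bound factor.

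Nr4a1, an orphan nuclear receptor of the immediate early class, had the most non-overlapping regions of the 3 genes called higher, and also the most regions in all. Its gene sum stood at 392, 339 and 315 CPM in 1w BM 1 to 3, against 207, 267 and 253 CPM in perinatal BM 1 to 3. Every 1w BM library lay above every perinatal one (log2 fold change 0.52, SE 0.11, edgeR adjusted p = 0.026). The call was lost without 1w BM 1 (edgeR adjusted p = 0.27) and without perinatal BM 1 (edgeR adjusted p = 0.39). Of its 9 regions, 6 did not overlap between the groups, all of them higher in 1w BM, against 5.95% of all tested regions. The gene was picked by the sum of these same regions, so this count is not separate support.

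The strongest of them lay 322 bp past the end of the gene, at chr15:101275117-101276185, and had 42.2, 31.2 and 26.3 CPM in 1w BM, against 15.7, 15.4 and 8.28 CPM in perinatal BM (log2 fold change 1.33, SE 0.23, edgeR adjusted p = 0.0015). The region over the start, chr15:101266443-101267046, holds the window printed above. It had 69.9, 63.6 and 68.8 CPM in 1w BM, against 37.4, 49.9 and 38.3 CPM in perinatal BM, a difference that missed the threshold (log2 fold change 0.68, edgeR adjusted p = 0.072). At 3 regions of the gene the libraries overlapped.

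**Figure D2:**
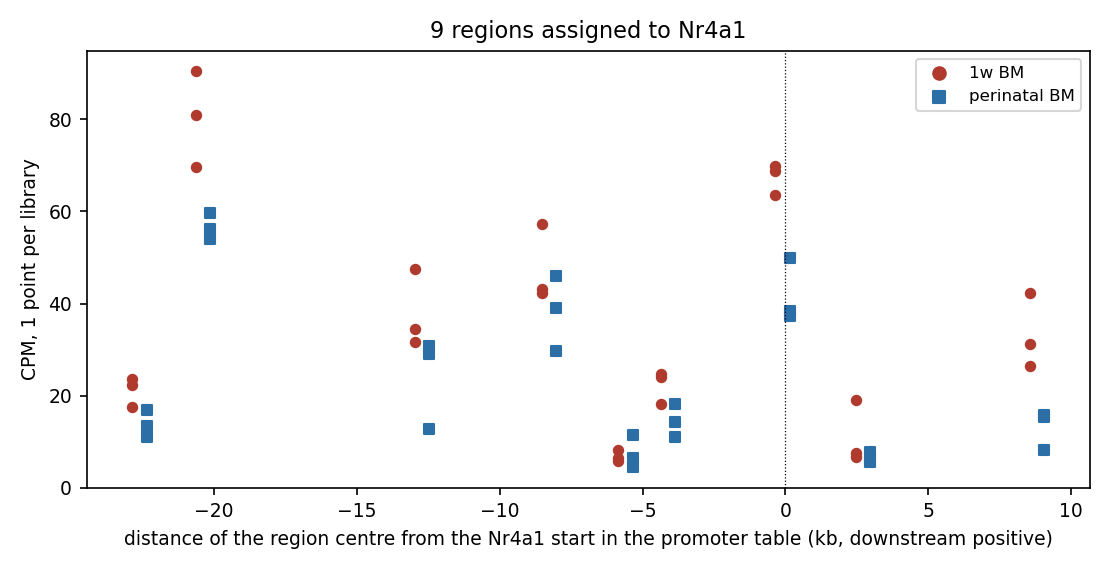
The 9 regions assigned to Nr4a1 are placed by the distance of their centre from the start of the gene (kb) on the x axis, with their level (CPM) on the y axis and 1 point per library, 1w BM as red circles and perinatal BM as blue squares. At the region over the start the 3 libraries of 1w BM sit between 63.6 and 69.9 CPM, all above those of perinatal BM.

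The other genes called higher by sum were Gosr2, a SNARE protein of Golgi transport, and Cnep1r1, a partner of a phosphatase of the nuclear envelope. Gosr2 had 95.7, 86.8 and 85.7 CPM in 1w BM, against 60.9, 61.4 and 63.5 CPM in perinatal BM. The groups did not overlap (log2 fold change 0.53, SE 0.12, edgeR adjusted p = 0.032). Of its 6 regions, 3 lay wholly higher in 1w BM, against 5.95% of all tested regions. Gosr2 was picked by the sum of these same regions, so this count is not separate support. Cnep1r1 had 56.5, 59.1 and 53.5 CPM in 1w BM, against 38.7, 39.4 and 33.2 CPM in perinatal BM (log2 fold change 0.59, SE 0.14, edgeR adjusted p = 0.045). Its level lay mainly in 1 region over the start, which missed the threshold alone (edgeR adjusted p = 0.097). In the fit without the co-varying regions, none of which lies in these 3 genes, Nr4a1, Gosr2 and Cnep1r1 had the same log2 fold changes (0.52, 0.53 and 0.59) and missed the threshold, with edgeR adjusted p-values of 0.059, 0.066 and 0.079. Of 20 settings, Nr4a1 kept its call in 16, Gosr2 in 9 and Cnep1r1 in 7. Leaving out any 1 library other than 1w BM 2 ended the call of Gosr2 (edgeR adjusted p of 0.058 to 0.21), and leaving out any 1 of the 6 ended that of Cnep1r1 (0.077 to 0.20).

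Mgat4b, Ppdpf, Guk1, AI662270, Capn8, Chd3 and Ly6e came next by p, with no overlap of the libraries but adjusted p-values of 0.053 to 0.127. Mgat4b, a Golgi enzyme that branches N-glycans, had sums of 65.3, 69.5 and 77.6 CPM in 1w BM, against 38.4, 53.3 and 52.1 CPM in perinatal BM (log2 fold change 0.56, edgeR adjusted p = 0.053). Ly6e, a small membrane protein of the Ly6 family, had 126, 137 and 149 CPM in 1w BM, against 93.5, 91.9 and 119 CPM in perinatal BM (log2 fold change 0.44, edgeR adjusted p = 0.13).

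Single regions showed a wider set. Of the 32 called higher, 27 had no overlap of the libraries. They lay at gene ends in 7 cases, in gene bodies in 11, between genes in 12 and far from any gene in 2. A region inside Mgat4b, chr11:50232833-50233426, had the smallest p, with 26.4, 30.9 and 21.0 CPM in 1w BM, against 7.71, 12 and 6.47 CPM in perinatal BM (log2 fold change 1.52, SE 0.25, edgeR adjusted p = 0.00099). The largest differences among the 10 regions chosen by rule were those near Spag9, a scaffold of JNK signalling (2.59), and Rhbg, an ammonium transporter (2.49). Near Rhbg the values were 7.64, 7.63 and 9.02 CPM in 1w BM, against 1.78, 1.5 and 1.04 CPM in perinatal BM. Near Spag9 they were 7.45, 17.4 and 3.89 CPM in 1w BM, against 1.19, 1.5 and 1.55 CPM in perinatal BM, so the size rested in part on 1w BM 2, without which the call was lost (edgeR adjusted p = 0.12).

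Regions at Neat1, Rgs1 and Edn2 were called as well. Neat1, a long noncoding RNA that builds nuclear paraspeckles, had an inner region at 19.7, 14.5 and 15.1 CPM in 1w BM, against 4.15, 6.19 and 5.18 CPM in perinatal BM (log2 fold change 1.64, SE 0.35, edgeR adjusted p = 0.017). Rgs1, which damps signalling of chemokine receptors, had a region at a gene end with 17.6, 9.08 and 9.74 CPM in 1w BM, against 4.15, 3.56 and 6.21 CPM in perinatal BM (log2 fold change 1.41, edgeR adjusted p = 0.020). No perinatal library reached the lowest 1w BM library at either region. Both calls were lost without 1w BM 1, with edgeR adjusted p-values of 0.21 at Neat1 and 0.40 at Rgs1, and that of Neat1 was lost with DESeq2 (adjusted p = 0.13). The other regions of Rgs1 did not pass and went in both directions, with log2 fold changes from -0.53 to 1.40. The region over the start of Edn2, which encodes endothelin 2, had 26, 32.7 and 23.0 CPM in 1w BM, against 11, 11.1 and 10.9 CPM in perinatal BM (log2 fold change 1.29, edgeR adjusted p = 0.021). This call was lost without 1w BM 1 or 1w BM 2 (edgeR adjusted p = 0.11 each) and without any 1 perinatal library (0.070 to 0.15).

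The remaining regions chosen by rule lay in Bahcc1, a chromatin reader (1.13), and near Phlpp1, a phosphatase that dephosphorylates AKT (1.85), and Dap, a gene of autophagy and cell death (1.36). Also called higher, outside that rule, were regions at Btg2, an antiproliferative gene that p53 induces (1.53), Egr1 (1.51), Bhlhe40, a transcriptional repressor (1.19), Ddit4, an inhibitor of mTORC1 (0.99), and Hilpda, a lipid droplet protein induced by hypoxia (1.73). These 5 were named after their values were seen, and their calls were not followed in the other settings. At all 5 the libraries did not overlap, and the edgeR adjusted p-values were 0.022 to 0.037. The called region of Btg2 was not the one over its start, which did not pass (log2 fold change 0.29, edgeR adjusted p = 0.65).

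**Figure D3:**
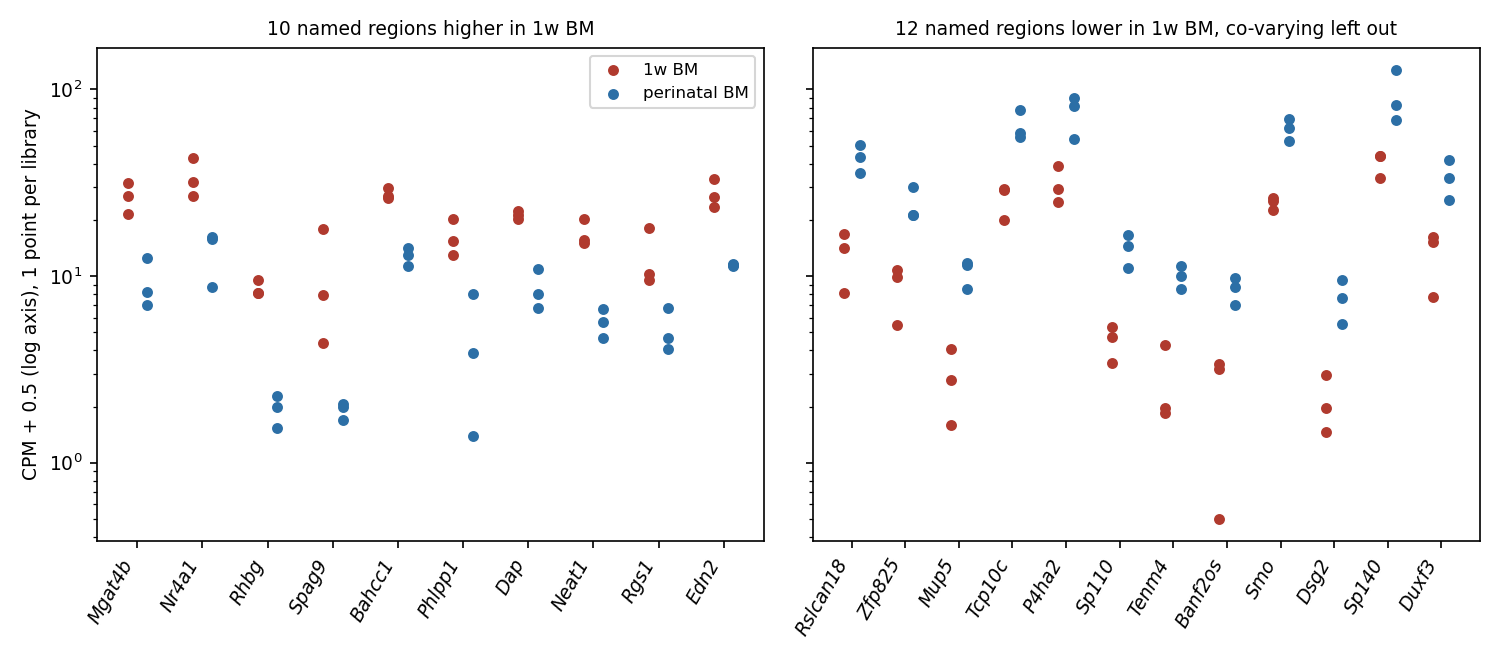
Levels of the named regions are drawn on a log axis as CPM plus 0.5, with 1 point per library, 1w BM in red to the left and perinatal BM in blue to the right of each gene. In the left panel every 1w BM library lies above every perinatal library of its region, and in the right panel every 1w BM library lies below.

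Of the 10 regions chosen by rule, those of Mgat4b and Rhbg kept their calls in all 19 settings and the other 8 in 13 (Rgs1) to 18 (Nr4a1) of them. A few of the higher calls rested on 1 library. At 4 regions, near or in Slc26a3, Kifap3, Synpo2 and Rasgef1a, 1w BM 3 had 34.2 to 45.5 CPM, while no other library of the 6 passed 4.13 CPM. These 4 were left out of the medians by stage that follow. At a region over Astl, also called, 1w BM 2 (26.9 CPM) lay within the perinatal range.

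Outside the 6 libraries, the median level of the higher regions was above that of 1w BM at each later marrow stage, though not for every region. The 28 regions without the 4 of 1 library had a median level of 2.67 log2 CPM in E12.5 PL, 2.62 in E12.5 FL, 2.79 in E16.5 FL, 2.76 in perinatal BM, 4.16 in 1w BM, 4.47 in 3w BM, 4.50 in 4w BM, 4.73 in 6w BM and 4.70 in 8w BM. At 22 of the 32 called higher, with 0 of the 4 regions of 1 library among them, all 11 libraries of 3w to 8w BM lay above all 6 FL libraries, and at 0 below. Over all tested regions this separation upward held at 7% and the downward one at 2.54%. The step from perinatal BM to 1w BM in these medians was fixed by the choice of the regions. This look at the other stages was added after the values had been seen. It uses no library of the comparison, but its libraries entered the shared spread of the test, so the count is not independent of the calls. The shares over all tested regions were not matched for level or spread.

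At the regions of Neat1 and Nr4a1 the levels were highest in 6w BM. The Neat1 region averaged 16.4 CPM in 1w BM and 5.17 CPM in perinatal BM, then 33.4 in 3w, 34.8 in 4w, 110 in 6w and 68.4 in 8w BM. The Nr4a1 region past the gene end averaged 33.3 CPM in 1w BM and 13.1 CPM in perinatal BM, then 34.5, 42.6, 104 and 59.1 CPM in 3w, 4w, 6w and 8w BM. The Bahcc1 region had 27.2 CPM in 1w BM and 12.3 CPM in perinatal BM, and ran from 22.1 to 27.5 CPM in the later marrow, below the 1w BM level at most of these stages.

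Among the lower calls, 84 of 146 belonged to a set of scattered regions that moved together across all stages. The set was drawn after the values had been seen, as regions whose level followed the median profile of the lower calls with a correlation over 0.8 across the 20 other libraries. It held 125 regions on 19 chromosomes, with 0 of the 32 called higher among them. Only 3 of the 125 lay at a gene end, 61 in gene bodies, 31 between genes and 30 far from any gene. Their summed level was 147, 1590 and 718 CPM in 1w BM 1 to 3, against 4186, 3322 and 2683 CPM in perinatal BM 1 to 3. In the other stages it ran from 140 (8w BM 2) to 2811 CPM (E12.5 PL 3), with 140 to 261 CPM in the libraries of 4w and 8w BM and 1037 to 1584 CPM in those of 6w BM, so the order followed no age. The cause of this shared movement was not tested.

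All 10 lower regions that the rule chose belonged to this set. Among them were regions in or near Btd, Nkain2, Clstn2, Tbk1, Slc39a11, Sulf1, Sema4b, Fras1 and Itprip. That of Btd, which encodes the biotin-recycling enzyme biotinidase, had 13.0, 47.9 and 32.6 CPM in 1w BM, against 163, 137 and 117 CPM in perinatal BM (log2 fold change -2.20, SE 0.28, edgeR adjusted p = 1.3e-05). That of Fras1, an extracellular matrix protein, had 0, 21.8 and 11.9 CPM in 1w BM, against 76.2, 66.0 and 54.4 CPM in perinatal BM (log2 fold change -2.66). In both, 1w BM 1 was the lowest and perinatal BM 1 the highest. By gene sums, 19 of the 39 genes called lower held a region of the set, among them Fras1, Btd, Cdh13, Myo5b, Zfp791, Stam2 and Itprip. Without the set none of these 7 passed. Btd, Stam2 and Itprip then had log2 fold changes of 0.10, 0.15 and 0.05, and Fras1, Myo5b and Zfp791 of -0.35, -0.34 and -0.34. Cdh13, a cadherin, stayed at -0.91 and missed the threshold narrowly (edgeR adjusted p = 0.052).

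**Figure D4:**
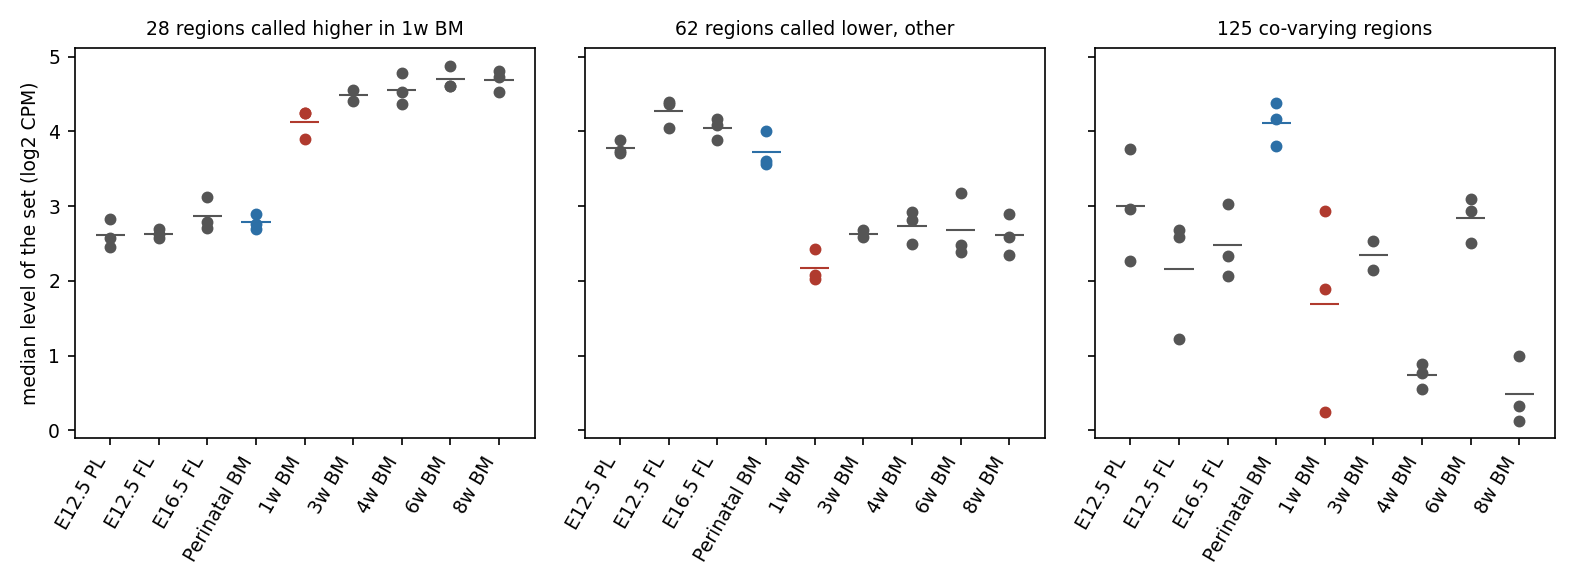
Each point is the median level (log2 CPM) of a set of regions in 1 of 26 libraries, by stage from E12.5 on the left to 8w BM on the right, with the mean of the group as a bar. The median of the higher regions lies above perinatal BM at 1w BM and later. That of the other lower regions is lowest at 1w BM and lies below perinatal BM at the later marrow stages. Both sets were picked by the difference between 1w BM and perinatal BM, so the step between these groups was fixed in advance. The 125 co-varying regions are highest in perinatal BM and spread widely in 1w BM.

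Outside the set stood 62 lower calls. They were picked as lower in 1w BM than in perinatal BM, so that step was fixed in advance. Their median level was 3.79 log2 CPM in E12.5 PL, 4.27 in E12.5 FL, 4.14 in E16.5 FL, 3.79 in perinatal BM, 2.19 in 1w BM, 2.62 in 3w BM, 2.78 in 4w BM, 2.52 in 6w BM and 2.56 in 8w BM. At 39 of the 62, all 11 libraries of 3w to 8w BM lay below all 6 FL libraries, against 2.54% of all tested regions, and at 0 above. The co-varying set was drawn on these same libraries, so the split of the lower calls is not independent of this count, which is also 39 over all 146 lower calls. The same libraries also entered the shared spread of the test. Of the 62, 60 had no overlap of the libraries, and 19 were far from any gene.

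Peg3, a paternally expressed imprinted gene that encodes a zinc finger protein, was lower with no co-varying region among its 3. Its sum was 78.0, 69.9 and 68.7 CPM in 1w BM, against 162, 123 and 103 CPM in perinatal BM. The groups did not overlap (log2 fold change -0.83, SE 0.14, edgeR adjusted p = 0.0017). Without perinatal BM 1, its highest library, the log2 fold change was -0.65 and the call was lost (edgeR adjusted p = 0.10). Most of the level lay in a region of the gene body, chr7:6727243-6728975, with 45.5, 37.8 and 41.5 CPM in 1w BM, against 99.9, 81.0 and 62.6 CPM in perinatal BM (log2 fold change -0.96, edgeR adjusted p = 0.0033). The region over the start, which holds the window printed above, had 7.45, 5.81 and 7.79 CPM in 1w BM, against 13.6, 11.8 and 12.2 CPM in perinatal BM, and missed the threshold (edgeR adjusted p = 0.26). By stage the sum of Peg3 averaged 193 CPM in E12.5 PL, 183 in E12.5 FL, 122 in E16.5 FL, 129 in perinatal BM, 72.2 in 1w BM, 29.6 in 3w BM, 28.3 in 4w BM, 30.8 in 6w BM and 25.4 in 8w BM, so 1w BM lay between the perinatal and the later marrow.

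Galnt17, an enzyme of the family that starts O-glycans, had a sum of 10.7, 6.83 and 8.45 CPM in 1w BM, against 20.9, 27.0 and 20.7 CPM in perinatal BM (log2 fold change -1.38, SE 0.25, edgeR adjusted p = 0.0056). Sp110, a nuclear body protein with a bromodomain, had 76.0, 88.8 and 91.3 CPM in 1w BM, against 196, 118 and 171 CPM in perinatal BM (log2 fold change -0.91, SE 0.17, edgeR adjusted p = 0.0056). Neither gene overlapped between the groups. The call of Galnt17 was lost without 1w BM 3 (edgeR adjusted p = 0.059), and that of Sp110 without 1w BM 1 (edgeR adjusted p = 0.12) or perinatal BM 1 (edgeR adjusted p = 0.16). Sp140, which lies beside Sp110, had a called region with 33.2, 43.6 and 43.5 CPM in 1w BM, against 126, 68.1 and 82.3 CPM in perinatal BM (log2 fold change -1.20, edgeR adjusted p = 0.017). That call was lost with DESeq2 (adjusted p = 0.23). It was also lost without 1w BM 1, 1w BM 3 or perinatal BM 1 (edgeR adjusted p = 0.25, 0.059 and 0.37). Sp110, Sp140, the zinc finger genes Zfp825, Zfp992, Zfp978 and Zfp980, Rslcan18, Tcp10c, Mup5, Olfr916 and Duxf3 belong to families with near-identical copies or repeats, and reads of the copies may be shared, so their values are uncertain. These genes and the regions outside the set were named after their values had been seen.

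The gene lists showed few called members. The shares over all genes, given here and below beside those of the lists, were not matched for level or for position at gene ends. The higher and lower regions without overlap differed in both (median 3.54 against 1.75 log2 CPM, and 31.5% against 7.13% at gene ends). The part of either in the shares of the lists was not tested. Over 29 lists, 4 held a called gene, which were Nr4a1 (in 2 lists), Peg3 and Sparc. Among 28 tested genes of the immediate early list, 1 was called higher, 5 did not overlap upward (17.9%, against 5.37% of all genes) and 0 downward, and 25 had a log2 fold change above 0 (89.3%, against 50.6% of all genes), with a median of 0.15, against 0.00 over all genes. In the other 20 settings 75% to 96.4% of the list lay above 0. The shares above 0 in the other lists ran from 14.3% (stromal) to 87.5% (NF-kB and inflammatory), so a lean upward was not particular to this list. Oxidative phosphorylation and megakaryocyte genes stood at 76.5% each, and JAK-STAT targets and glycolysis and hypoxia genes at 75% each. Jun, a subunit of AP-1, had 190, 106 and 87.2 CPM in 1w BM, against 77, 61.0 and 63.8 CPM in perinatal BM, and did not pass (log2 fold change 0.93, edgeR adjusted p = 0.28). Its size rested largely on 1w BM 1. Egr1 had 325, 256 and 273 CPM in 1w BM, against 209, 221 and 232 CPM in perinatal BM (log2 fold change 0.37, edgeR adjusted p = 0.32). Nr4a3, the relative of Nr4a1, had 222, 282 and 222 CPM in 1w BM, against 183, 219 and 186 CPM in perinatal BM (log2 fold change 0.29, edgeR adjusted p = 0.41).

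In the list of NF-kB and inflammatory genes, 21 of 24 had a log2 fold change above 0 (87.5%, against 50.6% of all genes) with a median of 0.14. Of these 24 genes 3 did not overlap upward (Nfkb2, Il6 and Tlr2), against 5.37% of all genes, and none was called. In the list of genes with an adult-type program, 4 of 24 did not overlap upward (16.7%, against the same 5.37%), with H2-D1, a class I histocompatibility gene, at 81.7, 68.7 and 73.3 CPM in 1w BM, against 57.5, 51.9 and 56.8 CPM in perinatal BM (edgeR adjusted p = 0.27). In the list of the fetal-type program, 5 of 20 had a log2 fold change above 0 (25%), with a median of -0.15, and 1 was called lower (Peg3). Here 4 did not overlap downward (20%, against 6.92% of all genes) and 2 upward (10%, against 5.37%). Igf2bp1, an RNA-binding protein of fetal cells, had 9.48, 17.3 and 15.3 CPM in 1w BM, against 18.2, 19.3 and 27.7 CPM in perinatal BM, and did not pass (edgeR adjusted p = 0.42). Arid3a, a factor of the same list, went the other way without passing, at 153, 133 and 164 CPM in 1w BM, against 75.7, 129 and 128 CPM in perinatal BM.

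Of 21 lymphoid and B cell genes, 5 did not overlap, all downward (23.8%, against 6.92% of all genes), with a median log2 fold change of -0.07. Ighm, the immunoglobulin heavy chain constant gene mu, had 69.5, 65.5 and 53.3 CPM in 1w BM, against 100, 99.2 and 86.5 CPM in perinatal BM (log2 fold change -0.61, edgeR adjusted p = 0.082). Il7r, the interleukin 7 receptor of lymphoid progenitors, had 8.09, 13.3 and 8.24 CPM in 1w BM, against 20.2, 20.3 and 14.9 CPM in perinatal BM (log2 fold change -0.97, edgeR adjusted p = 0.14). The others were Ly6d, Foxo1 and Ebf1, and the sum over 4 B cell markers overlapped, at 181 to 210 CPM in 1w BM and 203 to 208 CPM in perinatal BM.

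Of 21 stromal genes, 1 was called lower. In this list 3 had a log2 fold change above 0 (14.3%, against 50.6% of all genes) and 6 did not overlap, all downward (28.6%, against 6.92% of all genes), with a median of -0.14. Sparc, a matrix protein, passed with 33.8, 47.0 and 38.4 CPM in 1w BM, against 82.8, 78.4 and 58.8 CPM in perinatal BM (log2 fold change -0.91, SE 0.17, edgeR adjusted p = 0.0067), but 1 of its 12 regions belongs to the co-varying set. Without that set its log2 fold change was -0.17 (edgeR adjusted p = 0.83). The sum of 4 stromal markers was 94.8 to 101 CPM in 1w BM and 105 to 115 CPM in perinatal BM, and that of 4 megakaryocyte markers 180 to 206 CPM in 1w BM and 160 to 166 CPM in perinatal BM. Of the markers tested, Camp of the neutrophil list was at 0 in 1w BM 2, 1w BM 3 and perinatal BM 2 and no other was at 0. No marker of the 10 other cell types was called, and the part of other cells in these results was not tested. In bulk libraries, fewer cells of a type and less accessible chromatin per cell cannot be told apart.

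Of the genes behind the sort, Kit overlapped between the groups and Ly6a, which encodes Sca-1, overlapped at a low and scattered level. Ly6a had 0.987, 4.42 and 2.28 CPM in 1w BM, against 3.03, 2.91 and 5.24 CPM in perinatal BM, from 1 region (log2 fold change -0.68, SE 0.55, edgeR adjusted p = 0.77). The 6 blood markers summed to 960 to 1066 CPM in 1w BM and 970 to 1075 CPM in perinatal BM. Kit had 83.7, 87.6 and 106 CPM in 1w BM, against 84.4, 97.5 and 103 CPM in perinatal BM. Ptprc, Cd34, Flt3, Cxcr4, Runx1, Gata2, Mecom, Hlf and Meis1 had log2 fold changes of -0.08 to 0.08, none of them called. Of the fetal regulators Lin28b, Hmga2 and Igf2bp3, none passed either. Lin28b, which blocks let-7 maturation, averaged 48.7 ± 5.34 CPM in 1w BM and 54.4 ± 12.7 CPM in perinatal BM (SD, n = 3 each), and Igf2bp3 145 ± 19 CPM in 1w BM and 162 ± 14.4 CPM in perinatal BM. In 8w BM these 2 genes averaged 22.2 and 49.6 CPM.

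**Figure D5:**
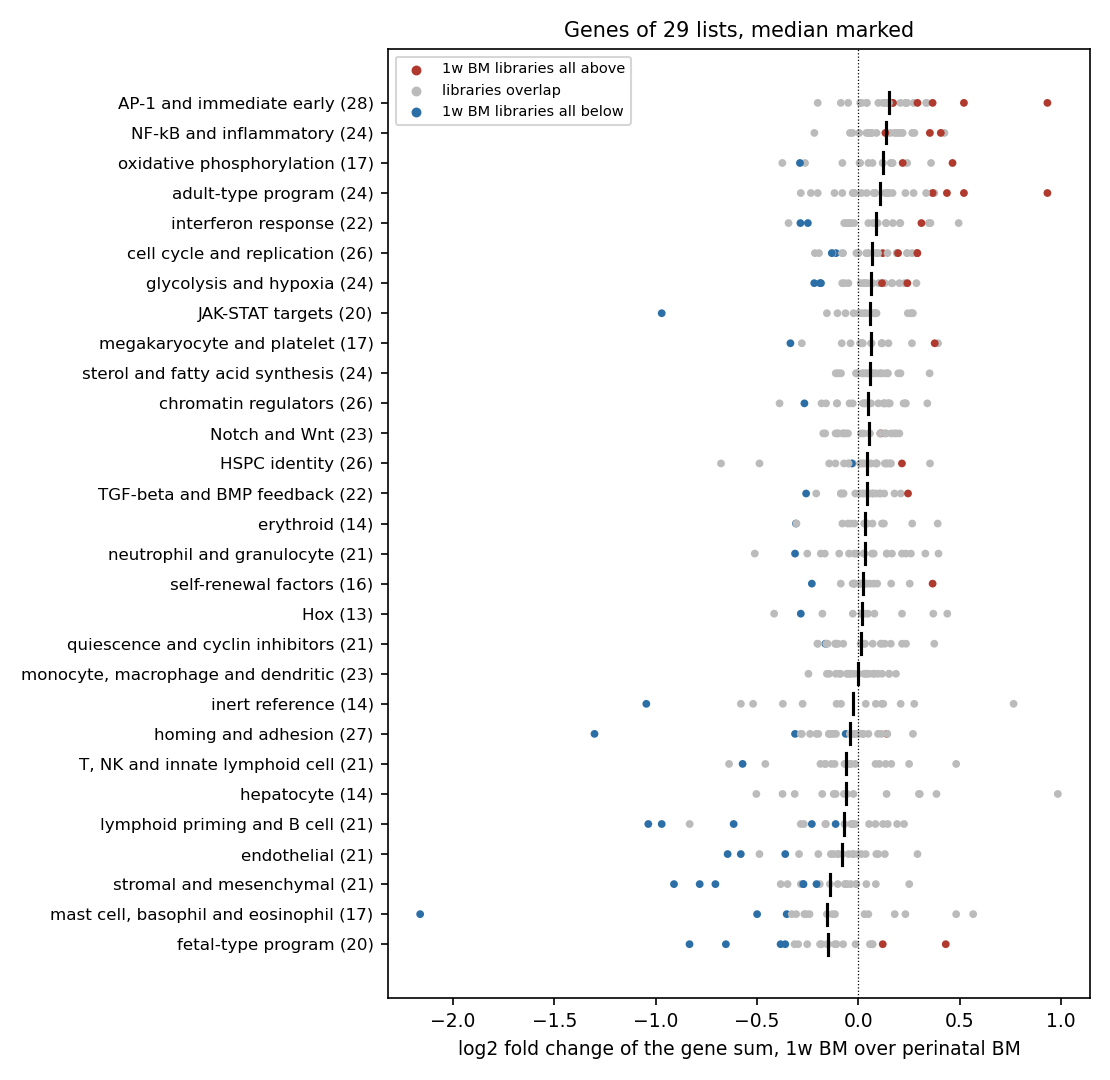
Each point is a gene of a list, placed by the log2 fold change of its sum, 1w BM over perinatal BM, with a bar at the median of the list, the number of genes tested beside its name and a dotted line at the median of all genes. Red and blue points are genes whose 3 libraries of 1w BM lie wholly above or wholly below those of perinatal BM, and the immediate early list at the top has 5 red points and 0 blue ones.

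The authors' peak lists, called per library, gave another view of the same samples. On autosomes they held 44728, 29642 and 49622 peaks in 1w BM, against 23438, 39893 and 26128 in perinatal BM, which averages 41331 ± 10414 in 1w BM and 29820 ± 8827 in perinatal BM (SD, n = 3 each). The difference gave an exact two-sided permutation p of 0.2 on log10 numbers. Within each group, peak number followed the depth of the libraries in order. Of the 32 regions called higher, 19 met a peak in all 3 lists of 1w BM and 4 in all 3 of perinatal BM, while 5 met no peak in any of the 6, among them the regions of Neat1 and Rgs1. Of the 62 lower calls outside the co-varying set, 13 met a peak in all 3 lists of 1w BM and 23 in all 3 of perinatal BM, and 19 met none. Of the 84 co-varying calls, these numbers were 2 and 58, and 4 met none.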

How the data were processed

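ATAC-seq libraries were taken by title into 1w BM (3) and Perinatal BM (3). The deposited table holds raw counts per region, whole numbers with no scaling. The authors' peak lists, 1 per library, hold a display score, a fold enrichment ratio and −log10 p and q, and were used to count and overlap peaks. Tools listed in the submitters' processing notes are HOMER, DiffBind, deepTools, MACS2 and Trim Galore, with build mm10. The aligner, duplicate removal, any Tn5 offset and the merging of regions are not given in the sources used here. Any of these steps could change the counts.

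Autosomal regions passing filterByExpr (minimum count 10) were scaled by TMM. edgeR 4.0.16 (R 4.3.3) then ran its quasi-likelihood test over 26 libraries in 9 groups that share the spread, with Benjamini-Hochberg adjustment at 0.05. Fold changes are 1w BM over perinatal BM. Levels are CPM (log2 values with a prior count of 2). The labels do not say whether libraries came from separate animals, so p-values measure only sample-to-sample spread, possibly technical. Libraries of 1 group differed by more than counting noise (chi-square per region of 2.66 to 4.11), so none was treated as a copy of another. Pairs across the 2 groups gave 2.84 to 4.83. Correlations of log2 CPM were 0.871 to 0.929 within groups and 0.855 to 0.919 across them. These ranges overlap, so over all regions the pairs did not part wholly by age. The test was checked on simulated counts, where it recovered 63.5% of regions changed by 2 on the log2 scale and 17 of 85 changed by 1, and 81.2% of genes changed by 1.

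Coordinates are those of mm10, counted from 1. Each region went to the closest of 20517 named genes of GRCm38.p6, up to 50 kb away, and counts were summed per gene. Exons and introns were not distinguished. A correlation over 0.8 with the median profile of the lower calls over the 20 other libraries defined the co-varying regions. Named regions are the 10 of smallest p in each direction among those called, without overlap of libraries, above the median level and changed by 1 or more on the log2 scale, 1 per gene, leaving out regions with no gene within 50 kb and predicted genes. Named genes were the 10 of smallest p without overlap, filled up by genes that missed only the adjusted p. Per list at most 4 members were chosen, and Kit, Ptprc, Flt3, Lin28b and similar genes were always shown. One named region and 1 named gene are not reported here. The members and lists were chosen with earlier results of these data known. Alternatives were DESeq2 1.42.0, its size factors, total counts, cyclic loess, other filters, the 6 libraries alone, thinning, the replicate block, other gene assignments, stricter peaks and leaving out each library. Python 3.11.15 and matplotlib 3.10.9 were also used.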

Additional observations from a re-analysis of the deposited data

How the results depend on the processing

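Of the counts of calls, 178 regions became 87 with DESeq2, 273 without the E12.5 PL libraries, 53 without the co-varying regions and 51 without regions at a correlation over 0.7, and leaving out 1 library gave 24 to 230. The 42 genes became 27 after thinning the 6 libraries to the smallest, 4 with regions at gene ends only and 6 without the co-varying regions, and leaving out 1 library gave 7 to 60. The 13365 of 96929 regions without overlap became 8430 of 64396 at a minimum count of 30 and 7049 of 59513 after thinning, both of which test fewer regions. Among the called genes that were followed singly, those that changed sign were Stam2 (0.17 with regions at gene ends only, 0.15 without the co-varying regions), Btd (0.10) and Itprip (0.054 without them). Scaling by size factors, total counts or loess moved neither total by more than 1.5 times. The replicate numbers gave no steady pairing of the libraries. Correlations of deviations were 0.006, -0.011 and 0.145 for libraries of the same number, against -0.078 to 0.074 for those of unlike number. The value of 0.145, for the libraries numbered 3, was the largest. A replicate block in the 6 libraries alone gave 167 regions and 60 genes, against 197 and 42 without the block. The gene end difference of 2.31 percentage points ran from 1.68 to 3.34 and the peak ratio of 1.39 from 1.25 to 1.63 when 1 library was left out. Settings on co-varying regions were chosen after seeing the data. Causes were not tested. At these depths, of which the lowest is 2789981 autosomal counts (1w BM 2), the test recovered 17 of 85 simulated regions changed by 1 on the log2 scale, and thinning the 6 libraries to that depth called 201 regions, against 197 in the 6 at full depth. Similar totals did not mean the same regions. Of the 32 higher calls, 12 were kept in the 6 libraries alone, 12 after thinning and 22 with cyclic loess. Of the 146 lower calls, these settings kept 132, 120 and 122.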

Other observations

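Metabolic and cell cycle genes held no call. Over all genes, 5.37% lay wholly higher and 6.92% wholly lower. Of 26 cell cycle and replication genes, 4 lay wholly higher in 1w BM (15.4%) and 2 wholly lower (7.69%), with a median log2 fold change of 0.07. Myc, a transcription factor that drives growth, had 143, 143 and 116 CPM in 1w BM, against 109, 102 and 116 CPM in perinatal BM (log2 fold change 0.29, edgeR adjusted p = 0.40). Of 17 genes of oxidative phosphorylation, 2 lay wholly higher (11.8%) and 1 wholly lower (5.88%), and of 24 genes of glycolysis and hypoxia 2 lay wholly higher (8.33%) and 3 wholly lower. The 24 sterol and fatty acid genes and the 23 monocyte, macrophage and dendritic genes all overlapped. The 22 interferon genes had 1 wholly higher (4.55%) and 2 wholly lower (9.09%).

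Genes of adhesion and of rarer lineages held a few larger differences that did not pass. Vcam1, an adhesion molecule of marrow and endothelium, had 3.95, 6.03 and 4.77 CPM in 1w BM, against 15.5, 12.7 and 7.28 CPM in perinatal BM (log2 fold change -1.30, edgeR adjusted p = 0.12). Aplnr, the apelin receptor, had 37.1, 37.4 and 36.8 CPM in 1w BM, against 71.0, 52.7 and 51.3 CPM in perinatal BM (log2 fold change -0.65, edgeR adjusted p = 0.19). Of 17 genes of mast cells, basophils and eosinophils, 3 lay wholly lower (17.6%, against 6.92% of all genes), among them Il5ra, the interleukin 5 receptor. Of 17 megakaryocyte genes 1 lay wholly higher, Gp9, and 1 wholly lower, Gp1bb (5.88% each, near the shares over all genes). These genes were named by the rule for lists or after their values were seen.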
